A study of Mus musculus with 18 samples.

Results

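Fetal liver was set against the rest of the same-stage embryo at 12.5 and 14.5 days post conception (dpc). The members were chosen by tissue and stage as the source names of the samples give them, 6 of the 18 arrays of the series: 4 of liver, 2 at each stage, and 2 of the embryo without its liver, 1 at each stage. The other arrays were embryonic liver between 10.5 and 16.5 dpc, liver of 10-week-old adult females and the rest of the embryo at 10.5 and 11.5 dpc. The animals were CD-1 mice, an outbred stock, and the labels name no treatment and no engineered allele for any group. Livers were microdissected from embryos freed of the yolk sac and cleaned of surrounding tissue, including the large vein behind the liver. RNA of at least 5 embryos was pooled for each embryonic sample. Arrays of a group are labelled as biological replicates, with no word on whether pools came from separate litters. P-values therefore measure only the spread between these samples. With 1 array a stage, the rest of the embryo has no replicate within a stage.

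From midgestation the fetal liver is a secretory organ and a blood-forming one. Hepatoblasts, the precursors of hepatocytes and bile duct cells, secrete plasma proteins such as albumin, while blood stem and progenitor cells that have seeded the organ give rise to definitive red cells, which carry adult globins and lose their nucleus. The earlier, primitive red cells come from the yolk sac, circulate with their nucleus and carry embryonic globins, so they can be present in any tissue that holds blood.

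Transcript levels are given as normalized intensity, the deposited value of a gene's probe set after the 6 arrays were brought to 1 common distribution (quantile normalization). A difference between tissues is in log2 units, liver minus rest of the embryo, from a limma fit with stage as a factor, so that 1 log2 is a doubling. Values under a floor of 25.3 were raised to it before the fit. A gene was called where the Benjamini-Hochberg adjusted p was under 0.05 and the tissues differed by at least 1 log2. In these pooled, bulk samples, fewer cells of a type and less RNA per cell cannot be told apart.

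The tissues also differed in the form of their deposited values. The medians lay between 74.6 and 76.1 on the 4 liver arrays and at 95.3 and 107 on the 2 others, and the 99th percentiles between 2613 and 2771 against 5946 and 5553. Between 1315 and 1399 probe sets read below 0 on each liver array and none did on the rest-of-embryo arrays, which held 41 and 36 exact zeros in their place. Array form and tissue coincide in every sample, so a difference of a single gene that comes from the form cannot be told apart from one that comes from the tissue. The liver arrays correlated with each other at r between 0.967 and 0.980 across probe sets, the rest-of-embryo arrays at 0.965, and arrays of different tissues between 0.657 and 0.706.

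The labelled tissues were checked against defining markers. Alb, which encodes serum albumin, read 10422 and 9932 in liver at 12.5 dpc and 10675 and 10791 at 14.5 dpc, against 224 and 742 in the rest of the embryo, a difference of 4.68 log2 (SE 0.33, adjusted p = 4.16e-05). A red cell marker was high in liver too, the band 3 anion exchanger Slc4a1, at 6316 and 5499 in liver at 12.5 dpc and 6365 and 6604 at 14.5 dpc, against 323 and 347 in the rest of the embryo. Tubb3, a tubulin of neurons, read 88.0 and 85.6 in liver at 12.5 dpc and 64.9 and 79.1 at 14.5 dpc, against 2534 and 2159 in the rest of the embryo, and the stem cell factor Sox2 of the neural tube read 27.4 and 29.5 in liver at 12.5 dpc and 40.5 and the floor at 14.5 dpc, against 1861 and 861 in the rest of the embryo. Each of these markers separated the tissues without overlap at both stages.

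1 liver array stood apart. Transcripts of heart muscle were raised on the second array at 12.5 dpc: atrial light chain Myl7 read 155 and then 1691 on the arrays of that stage, 39.0 and 43.1 in the older livers, and 657 and 652 in the rest of the embryo. Natriuretic peptide Nppa read 233 and 1553 at 12.5 dpc, was under the floor on both liver arrays of 14.5 dpc, and read 404 and 320 in the rest. The summed intensity of the 18 heart genes was 3582 and 13323 in the younger livers and 1298 and 1218 in the older ones, against 8581 and 18628 in the rest of the embryo. Whether heart tissue entered this pool was not tested, nor was any part it might have in other results. Counts without this array are given where they move.

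In all, 14191 genes were tested. Of these, 2982 (21%) were called higher in liver and 3631 (25.6%) lower, with a median difference of -0.15 log2. These shares depend on the scaling: 45.1% of the called genes were higher in liver after quantile normalization, 30.1% when arrays were only scaled to a common median, and 19.6% with no scaling, where the median difference was -0.70 and -1.14 log2. Counts of list members are therefore read against the background shares of 21% and 25.6%.

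Ranks within an array do not depend on its scale. Among the 100 genes with the highest intensity on each array, 84 were common to the 4 liver arrays, 84 to both rest-of-embryo arrays, and 52 to all 6, most of the last being ribosomal proteins. Genes of the hepatic lists took 8 and 8 of the 100 places on the liver arrays of 12.5 dpc, 11 and 11 at 14.5 dpc, and 1 and 4 in the rest of the embryo. Genes of the blood lists took 4 and 6 places, then 8 and 7, against 2 and 0. In the rest of the embryo, 2 and 8 places went to genes of the lists for other embryonic tissues, among them the collagens Col1a2 and Col3a1 on both arrays. On all 4 liver arrays the top 100 held Alb, Afp, Apoa2, Serpina6 and Ttr beside the red cell genes Slc4a1, Fech, Slc25a37 and Car2.

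**Figure D1:**
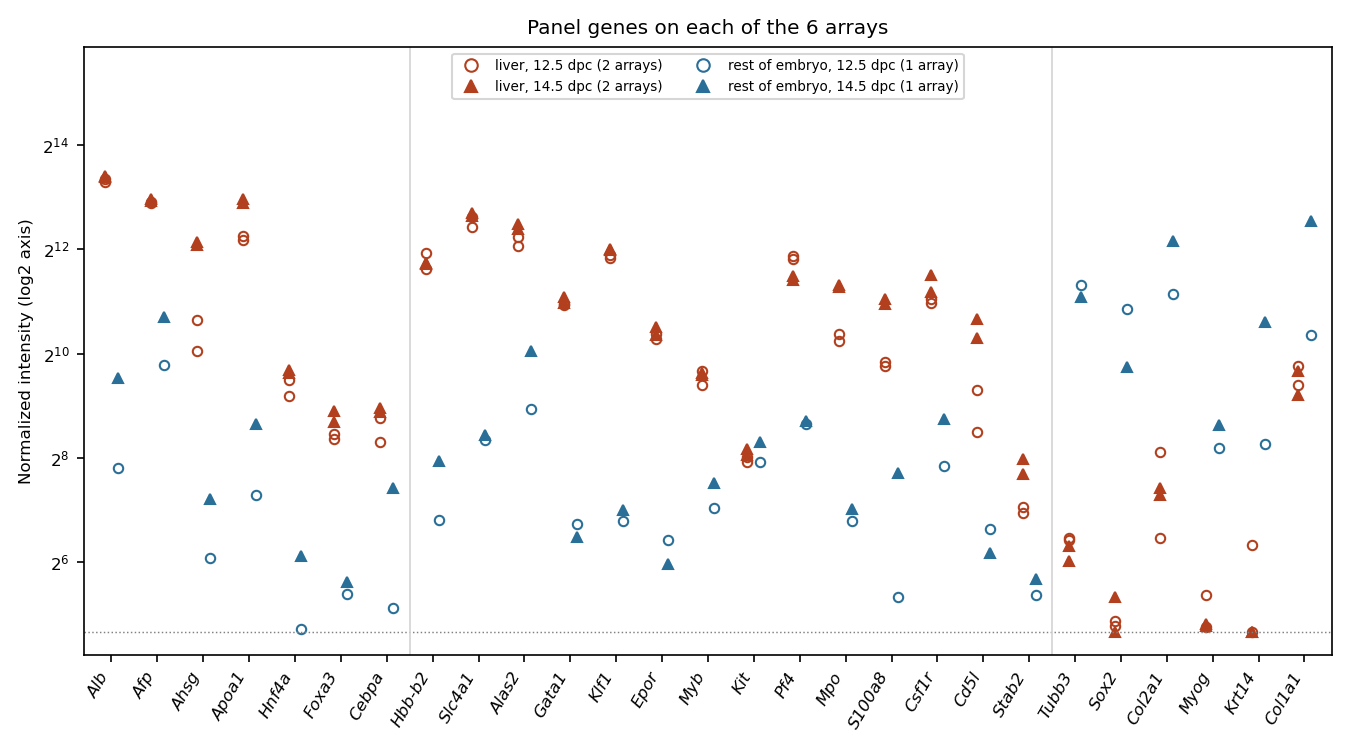
Normalized intensity (log2 axis) of panel genes on each of the 6 arrays. Red marks liver and blue the rest of the embryo, open circles 12.5 dpc and filled triangles 14.5 dpc, and the dotted line is the floor of 25.3. Hepatic genes (left) and most blood genes (middle) lie higher on the liver arrays, Kit overlaps between the tissues, and genes of other tissues (right) lie lower in liver.

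The liver at these stages was marked first by secreted proteins. Of 20 tested plasma protein genes, 16 were called higher in liver and 0 lower, with a median difference of 4.39 log2. Alpha-fetoprotein (Afp), the fetal relative of albumin, read 7590.5 and 7700.4 in liver at 12.5 dpc and 7787 and 7964 at 14.5 dpc, against 881 and 1673 in the rest of the embryo. It varied little among the liver arrays and lay far lower in the rest of the embryo, a difference of 2.68 log2 (SE 0.18, adjusted p = 3.52e-05). Fetuin-A (Ahsg), an inhibitor of mineral deposition, read 1595 and 1065 in liver at 12.5 dpc and 4300.1 and 4499 at 14.5 dpc, against 67.6 and 149 in the rest of the embryo, a difference of 4.57 log2 (SE 0.20, adjusted p = 7.97e-06). In the liver it was higher at 14.5 than at 12.5 dpc on both arrays. The corticosteroid carrier Serpina6 (5.88 log2, SE 0.17, adjusted p = 1.79e-06) and the protease inhibitor Serpina1b (5.89 log2, SE 0.12, adjusted p = 7.52e-07) had the largest differences of the list. Kininogen (Kng1) differed by 5.55 log2 (SE 0.20, adjusted p = 4e-06). Itih4, Hp, Fetub and Itih1 were not called, at 1.99, 1.06, 0.97 and 0.79 log2. Transthyretin (Ttr), a thyroid hormone carrier made outside the liver too, differed by 1.09 log2 and was called.

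Clotting factors behaved alike. Of 16 tested, 15 were called higher and 1 lower, with a median of 3.93 log2. The 3 chains of fibrinogen, the protein of the clot, led the list. Fga read 2725 and 1992 in liver at 12.5 dpc and 4796 and 5040 at 14.5 dpc, against the floor and 49.96 in the rest of the embryo, a difference of 6.57 log2 (SE 0.14, adjusted p = 7.53e-07), and the other two followed, Fgb with 6.48 log2 (SE 0.26, adjusted p = 6.14e-06) and Fgg with 6.38 log2 (SE 0.13, adjusted p = 7.52e-07). Their liver levels at 14.5 dpc were higher than at 12.5 dpc on both arrays. The exception was Pros1, protein S, a cofactor of protein C that other cells make as well, at -1.28 log2. Complement, the plasma arm of innate immunity, was less complete: 9 of 12 genes were called higher, 0 lower, with a median of 1.93 log2. Factor B (Cfb) read 431 and 316 in liver at 12.5 dpc and 820 and 773 at 14.5 dpc, against the floor on both in the rest of the embryo, at least 21.4-fold higher in liver. Masp1, a protease of the lectin pathway, differed by 4.29 log2 (SE 0.10, adjusted p = 1.03e-06), and C5 (Hc), a component of the attack complex, by 3.30 log2 (SE 0.27, adjusted p = 6.86e-05). Other probe sets of Masp1 gave 1.62, 0.07 and -0.36 log2, and the mean of its probe sets was not called.

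Among 12 tested apolipoproteins and factors of lipoprotein assembly, 10 were called higher and 1 lower, with a median of 3.34 log2. Apoa1, the main protein of high-density lipoprotein, read 4866 and 4604 in liver at 12.5 dpc and 8016 and 7554 at 14.5 dpc, against 157 and 402 in the rest of the embryo, a difference of 4.60 log2 (SE 0.14, adjusted p = 2.34e-06). Its companion Apoa2 differed by 5.39 log2 (SE 0.11, adjusted p = 7.53e-07), and Apom, which binds sphingosine phosphate, by 5.28 log2 (SE 0.16, adjusted p = 2.27e-06). The one gene lower in liver was the phospholipid transfer protein Pltp, at -1.35 log2.

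The transcription factors that direct hepatic genes were less uniform than the genes they act on. Of 20 tested, 9 were called higher and 2 lower, and the median was 0.74 log2. Hnf4a, a nuclear receptor central to hepatocyte identity, read 718 and 584 in liver at 12.5 dpc and 827 and 795 at 14.5 dpc, against 26.3 and 70.05 in the rest of the embryo, a difference of 4.08 log2 (SE 0.26, adjusted p = 2.62e-05). Creb3l3, a membrane-bound factor of liver and gut, read 1504 and 1242 in liver at 12.5 dpc and 1681 and 1354 at 14.5 dpc, against the floor on both in the rest of the embryo, at least 56.8-fold higher in liver. Ppara, the receptor that drives fatty acid oxidation, differed by 4.58 log2 (SE 0.15, adjusted p = 2.91e-06), Foxa3 by 3.10 log2 (SE 0.15, adjusted p = 1.08e-05) and Cebpa by 2.45 log2 (SE 0.41, adjusted p = 0.00178). Other probe sets of Ppara gave 1.62 and 1.72 log2, and those of Hnf4a 2.51, 3.73 and 2.13. Factors that gut and other tissues share were mixed. Gata6 and Onecut2 were called higher, at 2.40 and 1.37 log2, while Foxa2 at 0.08, Prox1 at 0.06, Hhex at 0.25 and Gata4 at 0.64 log2 were not called. Tbx3, which also patterns limbs and heart, was called lower at -1.41 log2, as was the widely expressed receptor partner Rxra at -1.17 log2.

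Metabolic genes came next. For the urea cycle and amino acid breakdown, 14 of 24 genes were called higher and 1 lower, with a median of 1.58 log2. Betaine methyltransferase (Bhmt) read 881 and 489.5 in liver at 12.5 dpc and 1649.7 and 1733 at 14.5 dpc, against the floor and 41.7 in the rest of the embryo, a difference of 5.02 log2 (SE 0.27, adjusted p = 1.5e-05). The tyrosine-degrading enzyme Hpd differed by 4.82 log2 (SE 0.16, adjusted p = 3.48e-06), and Otc, the mitochondrial enzyme that makes citrulline, by 3.57 log2 (SE 0.21, adjusted p = 2.03e-05). Arg1 and Asl, later steps of the cycle, were not called, at 0.83 and 0.96 log2. Of 12 genes of glucose and glycogen metabolism, 6 were called higher and 3 lower. Igfbp1, a binding protein for insulin-like growth factors, read 743 and 616 in liver at 12.5 dpc and 954 and 1108 at 14.5 dpc, against 42.0 and 30.6 in the rest of the embryo, a difference of 4.54 log2 (SE 0.25, adjusted p = 1.78e-05). The glucose transporter Slc2a2 differed by 4.03 log2 (SE 0.29, adjusted p = 4.51e-05), and glycogen synthase Gys2 was at least 13-fold higher. The glycogen-targeting subunits Ppp1r3b and Ppp1r3c and Igf1 were called lower, at -3.55, -3.06 and -1.97 log2.

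Functions known from the mature organ were mixed. Of 11 tested genes of bile acid and sterol metabolism, out of 17 with a probe set, 4 were called higher and 2 lower, with a median of 0.33 log2. Those not tested, among them Slc10a1, Abcb11 and Baat, were above the filter of 83.9 on fewer than 2 arrays. Acox2, a peroxisomal oxidase of bile acid side chains, read 157 and 76.5 in liver at 12.5 dpc and 415 and 419.8 at 14.5 dpc, against the floor and 25.9 in the rest of the embryo, a difference of 3.06 log2 (SE 0.48, adjusted p = 0.00125). Cyp7a1, the rate-limiting enzyme of bile acid synthesis, was not called at -0.22 log2, and Cyp7b1 was called lower at -2.52 log2. Of 11 tested P450 and conjugation enzymes, out of 19 with a probe set, 6 were called higher and 2 lower, with a median of 1.63 log2. Cyp2e1, Cyp2c29 and Cyp3a13 were among those too low to be tested. Ugt2b34 differed by 3.65 log2 (SE 0.20, adjusted p = 1.55e-05) and Cyp4v3 by 3.59 log2 (SE 0.24, adjusted p = 3.33e-05), while Aldh1a1, a retinoic acid-forming enzyme, was lower at -3.10 log2.

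Oncofetal and hepatoblast genes did not set the liver apart as a group: 3 of 15 were called higher, 2 lower, and the median was -0.26 log2. The trypsin inhibitor Spink1 read 474 and 236 in liver at 12.5 dpc and 622 and 587 at 14.5 dpc, against 32.9 and 48.1 in the rest of the embryo, a difference of 3.50 log2 (SE 0.29, adjusted p = 7.22e-05). Epithelial keratin Krt8 differed by 1.25 log2 (SE 0.24, adjusted p = 0.00302), which fell below the threshold, at 0.75 log2, without the rest-of-embryo array of 12.5 dpc. The growth factor Igf2 differed by -0.14 log2, Dlk1 by 0.31 and Gpc3 by -0.26, none of them called. With arrays scaled to a common median or not at all, 7 or 9 of the 15 were called lower.

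Iron is used by red cells for heme and sensed by hepatocytes. Of 15 genes of iron handling, 7 were called higher and 2 lower, with a median of 0.67 log2. Tfr2, an iron sensor, read 451 and 449.6 in liver at 12.5 dpc and 660 and 653 at 14.5 dpc, against 97.4 and 80.04 in the rest of the embryo, a difference of 2.62 log2 (SE 0.20, adjusted p = 5.47e-05). The ferrireductase Steap3 differed by 2.44 log2 (SE 0.25, adjusted p = 0.000176), and the transferrin receptor Tfrc by 2.19 log2. Hepcidin (Hamp), the hormone that limits iron export, read 61.6 and 58.2 in liver at 12.5 dpc and 99.3 and 88.4 at 14.5 dpc, against 73.7 and 58.4 in the rest of the embryo, with overlapping tissues and a difference of 0.19 log2 (SE 0.25, adjusted p = 0.518). Heph, the iron oxidase of gut and other tissues, was lower at -3.20 log2.

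Red cell genes separated the tissues as clearly as plasma proteins did. Of 20 tested genes of the definitive red cell list, 19 were called higher in liver and 0 lower, with a median of 3.97 log2. Icam4, an adhesion protein of erythroblasts, read 2354 and 2188 in liver at 12.5 dpc and 2372 and 2595 at 14.5 dpc, against the floor on both in the rest of the embryo, at least 93.8-fold higher in liver. Hemgn, a nuclear protein of erythroid cells, read 4857 and 4578 in liver at 12.5 dpc and 5197 and 4979.6 at 14.5 dpc, against 63.5 and 128 in the rest of the embryo, a difference of 5.77 log2 (SE 0.19, adjusted p = 3.11e-06). The Rh-associated glycoprotein Rhag differed by 5.63 log2 (SE 0.11, adjusted p = 7.16e-07) and Slc4a1 by 4.21 log2 (SE 0.07, adjusted p = 6.39e-07). The single gene not called was Bpgm, at 0.91 log2, a red cell enzyme whose product lowers the oxygen affinity of hemoglobin. Most adult beta-globin genes were not analysed here, since their probe sets carry several gene symbols. The adult alpha-globin genes Hba-a1 and Hba-a2 had probe sets of their own but did not pass the filter on low values. After normalization over the whole series, Hba-a1 read between 40.9 and 103 in embryonic liver. It read 66.8 and 79.6 in adult liver and at most 17 in the rest of the embryo. A beta-globin probe set assigned to Hbb-b2 alone read 3905 and 3126 in liver at 12.5 dpc and 3395 and 3374 at 14.5 dpc, against 113 and 245 in the rest of the embryo, a difference of 4.37 log2 (SE 0.25, adjusted p = 1.99e-05). A second tested probe set of Hbb-b2 gave -2.72 log2, and the mean of both was not called.

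**Figure D2:**
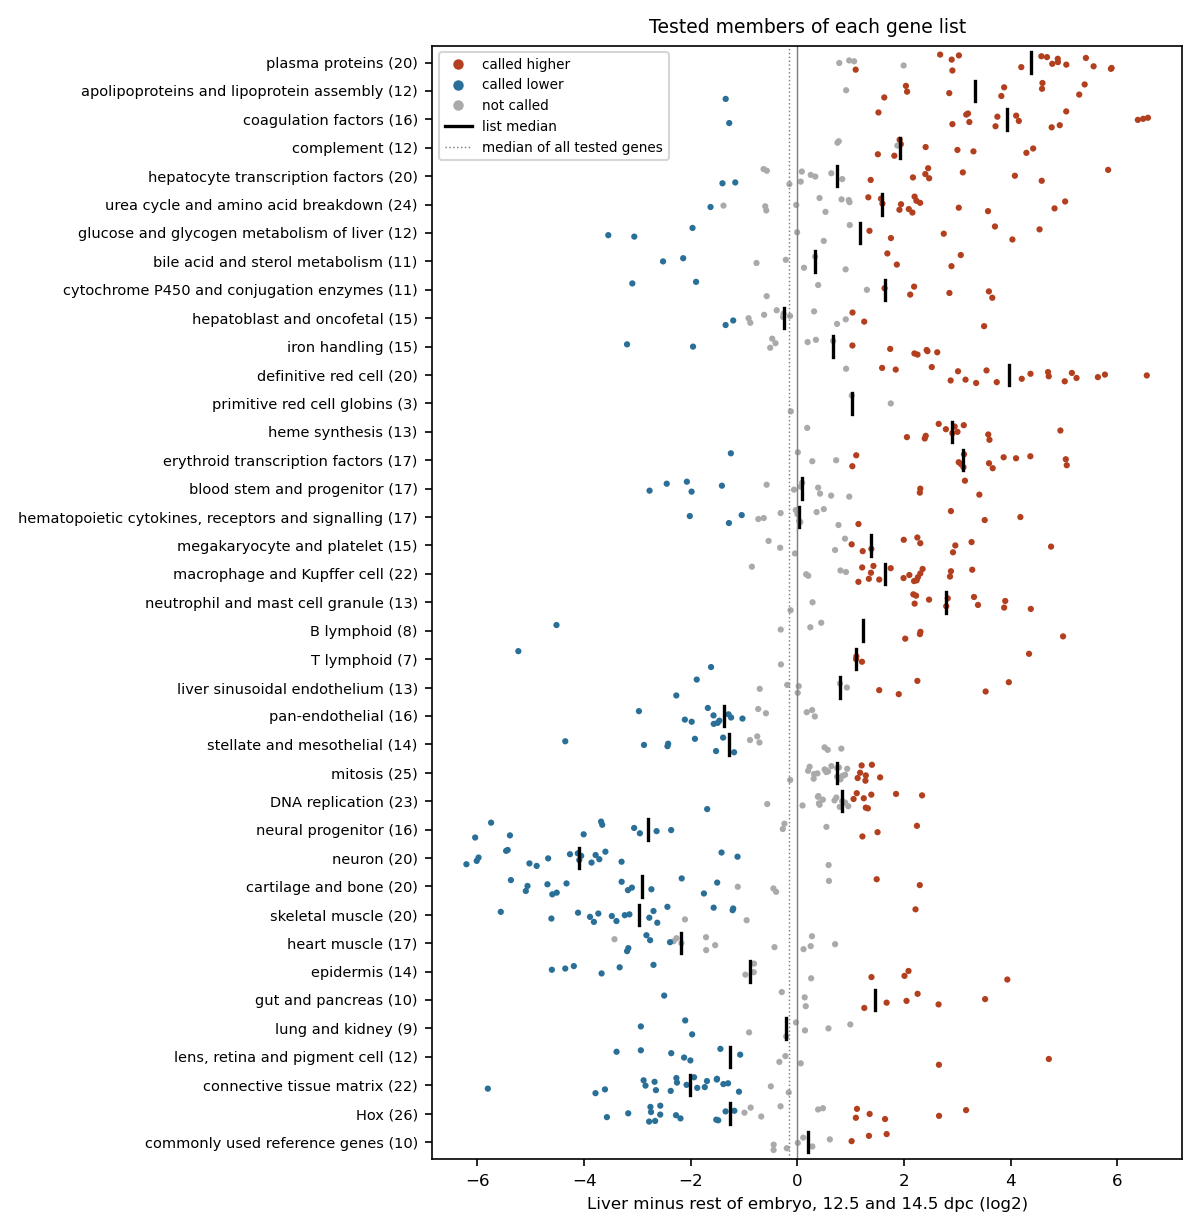
Liver minus rest of the embryo (log2) for every tested member of 39 gene lists, 1 point a gene. Red points were called higher, blue lower and grey not called, black bars are list medians, and the dotted line is the median of all tested genes, -0.15. Plasma protein, clotting and red cell lists lie to the right, neuron and skeletal muscle lists to the left.

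Heme, the oxygen-binding group of hemoglobin, is built by a chain of enzymes. Of 13 tested heme genes, 12 were called higher, 0 lower, with a median of 2.91 log2. The erythroid first enzyme Alas2 read 4789.8 and 4252 in liver at 12.5 dpc and 5706 and 5328 at 14.5 dpc, against 493 and 1064 in the rest of the embryo, a difference of 2.78 log2 (SE 0.18, adjusted p = 2.83e-05). Alas1, its counterpart in other cells, read 345 and 343 in liver at 12.5 dpc and 419 and 427 at 14.5 dpc, against 309.7 and 364 in the rest of the embryo, and was not called at 0.18 log2. Coproporphyrinogen oxidase (Cpox) had the largest difference, 4.93 log2 (SE 0.20, adjusted p = 6.54e-06). Uros differed by 3.60 log2 (SE 0.08, adjusted p = 7.53e-07), with a second probe set at 0.33 log2, and the mitochondrial iron importer Slc25a37 by 3.58 log2 (SE 0.29, adjusted p = 7.19e-05). Factors known to activate red cell genes were high as well. Of 17 erythroid transcription factors, 13 were called higher and 1 lower, with a median of 3.11 log2. Klf1, which activates adult beta-globin, read 3768 and 3648 in liver at 12.5 dpc and 4049 and 4129 at 14.5 dpc, against 110.4 and 128 in the rest of the embryo, and Gata1, the zinc finger factor of red cells and megakaryocytes, read 1977 and 1941 in liver at 12.5 dpc and 1992 and 2177 at 14.5 dpc, against 107 and 89.4 in the rest of the embryo. Klf1 differed by 5.03 log2 (SE 0.07, adjusted p = 2.52e-07), Gata1 by 4.37 log2 (SE 0.11, adjusted p = 1.18e-06), and the leucine zipper factor Nfe2 by 5.05 log2 (SE 0.16, adjusted p = 2.46e-06). Bcl11a, the repressor of embryonic globins, was not called at 0.01 log2.

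Since hepatic and red cell genes moved as groups, the promoters of their members were searched for the DNA letters that 2 classes of regulators are known to bind. HNF1 factors act in hepatocytes and GATA factors in red cell precursors. The 250 bases before the RefSeq start of each gene (GRCm38.p6) were read on both strands. Over 27025 genes, the HNF1 consensus was found in 119 (0.44%), and the letters AGATAA, read by GATA factors, in 3090 (11.4%). The HNF1 letters were found in 3 of 23 plasma protein promoters, 1 of 17 clotting factors, 1 of 11 complement genes, 0 of 13 apolipoproteins and 0 of 19 definitive red cell genes. The GATA letters were found in 7 of 19 definitive red cell genes, 3 of 15 erythroid factors, 1 of 11 heme genes, 2 of 23 plasma protein genes, 2 of 11 complement genes and 2 of 12 neuron genes. CAAAGTCCA (HNF4), ATTGCNNAA (C/EBP) and CCNCACCC (KLF1) were searched too and were found in 0.45%, 2.24% and 16.6% of all promoters. Of the definitive red cell promoters, 0, 0 and 5 of 19 held them, and of the plasma protein promoters 0, 4 and 3 of 23. The KLF1 letters were also found in 7 of 15 erythroid factors, 3 of 11 heme genes and 4 of 12 neuron genes. Among the other hepatic lists they were in 5 of 13 apolipoproteins, 3 of 17 clotting factors and 1 of 11 complement genes. No share was taken for the glucose and glycogen list, which holds Igfbp1. A match describes letters and shows no binding. Windows of 60 bases with the matched letters in capitals, on the strand of the gene, show the HNF1 match in 3 hepatic genes and the GATA match in 4 red cell genes. Rhd and Kel, which encode blood group proteins, were chosen after their values were seen, at 5.23 and 4.71 log2.
Afp: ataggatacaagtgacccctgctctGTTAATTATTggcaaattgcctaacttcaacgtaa
Igfbp1: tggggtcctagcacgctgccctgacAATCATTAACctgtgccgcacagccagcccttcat
Hc: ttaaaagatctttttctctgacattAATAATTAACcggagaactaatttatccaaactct
Icam4: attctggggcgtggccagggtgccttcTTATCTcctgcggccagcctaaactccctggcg
Rhd: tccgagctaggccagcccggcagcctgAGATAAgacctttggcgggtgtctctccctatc
Kel: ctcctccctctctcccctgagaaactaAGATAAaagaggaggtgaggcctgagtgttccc
Alas2: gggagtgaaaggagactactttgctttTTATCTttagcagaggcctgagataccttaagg

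The Afp window is chr5:90490584-90490643 on the plus strand, and its match begins 105 bases before the start of the gene. Those of Igfbp1 (chr11:7197702-7197761, plus strand) and Hc (chr2:35061456-35061515, minus strand) begin 60 and 78 bases before it, both in the reverse orientation, as are those of Icam4 and Alas2. The Icam4 window is chr9:21029362-21029421 on the plus strand, with its match from 43 bases before the start, and the Rhd window is chr4:134864466-134864525 on the plus strand, also from 43 bases. The Kel window (chr6:41704349-41704408, minus strand) has its match from 56 bases and the Alas2 window (chrX:150547304-150547363, plus strand) from 86 bases before the start. The windows lie outside the transcribed part of their genes, in the upstream region of the annotation.

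Of the 3 primitive, embryonic globin genes, none was called. Globin genes are close relatives, and signal shared between them is possible. Hbb-y read 4871 and 5541 in liver at 12.5 dpc and 3483 and 2741 at 14.5 dpc, against 9932 and 1920 in the rest of the embryo, a difference of -0.12 log2 (SE 0.34, adjusted p = 0.755). Hbb-y stood at -0.93 log2 at 12.5 dpc and at 0.69 at 14.5 dpc. Other probe sets of Hbb-y gave -7.43 and 0.59 log2. Hba-x, the embryonic alpha-globin, read 4683 and 8381 in liver at 12.5 dpc and 2104 and 2038 at 14.5 dpc, against 6134 and 515 in the rest of the embryo, a difference of 1.02 log2 (SE 0.44, adjusted p = 0.0767). Hbb-bh1 read 1012 and 2923 in liver at 12.5 dpc and 750.4 and 954 at 14.5 dpc, against 2562 and 50.2 in the rest of the embryo, a difference of 1.75 log2 (SE 0.999, adjusted p = 0.154). Other probe sets of Hbb-bh1 gave 2.57 and 2.36 log2. The 2 liver arrays of 12.5 dpc lay, for Hbb-bh1, on either side of the rest-of-embryo value. For both Hba-x and Hbb-bh1 the rest of the embryo dropped between the stages by more than the liver did, yet the tissue-by-stage term was not called (adjusted p = 0.251 and 0.198). Without the rest-of-embryo array of 12.5 dpc, 2 of the 3 genes were called higher, Hba-x at 1.98 and Hbb-bh1 at 3.91 log2. Both were also called in a fit of 12 arrays, at 1.03 and 1.75 log2, and in one of all 18, and Hba-x without the first liver array of 12.5 dpc, at 1.34 log2.

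**Figure D3:**
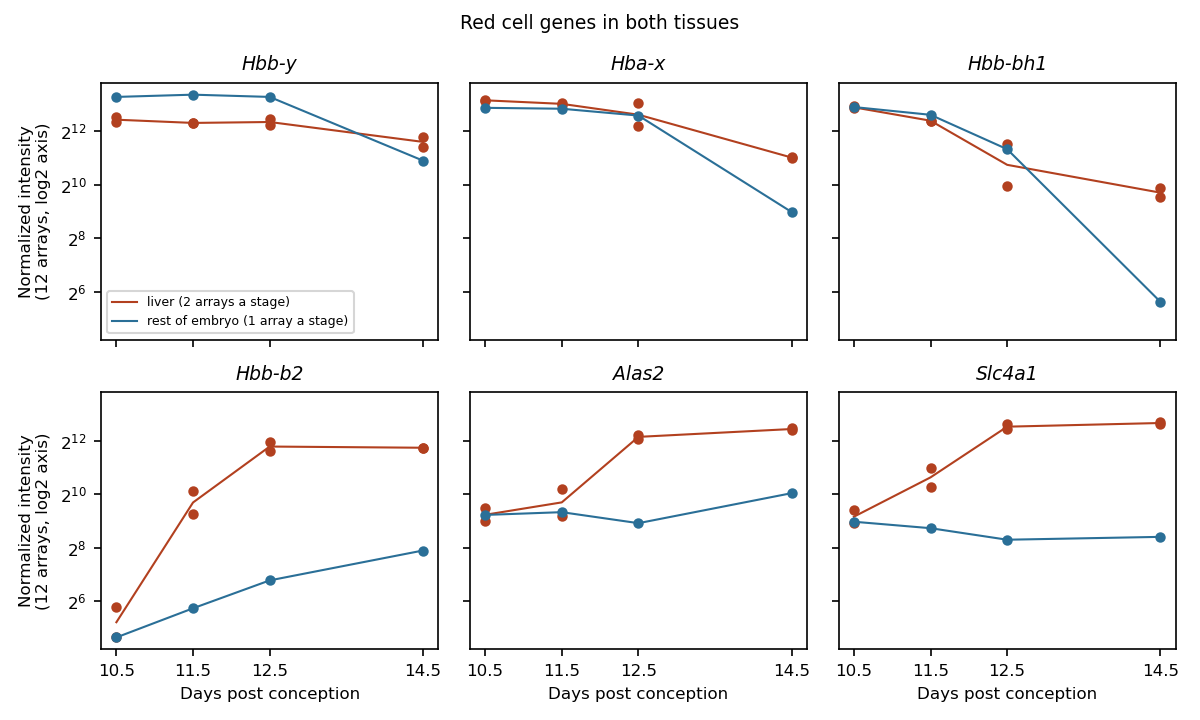
Normalized intensity (12 arrays, log2 axis) of 6 red cell genes from 10.5 to 14.5 dpc, with 1 point an array and lines through stage means. Of the embryonic globins (top), Hbb-y lies higher in the rest of the embryo (blue) than in liver (red) until 12.5 dpc, and all 3 are lower in the rest at 14.5 dpc. Hbb-b2, Alas2 and Slc4a1 (bottom) start closer and part between 10.5 and 12.5 dpc as the liver level climbs.

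Genes of blood stem and progenitor cells were split. Of 17, 4 were called higher and 5 lower, near the background shares, and the median was 0.09 log2. Runx1, required for blood stem cells to form, read 516 and 488 in liver at 12.5 dpc and 515 and 482 at 14.5 dpc, against 43.2 and 51.2 in the rest of the embryo, a difference of 3.41 log2 (SE 0.14, adjusted p = 6.32e-06). Myb, needed for definitive blood formation, read 676 and 811 in liver at 12.5 dpc and 771 and 792 at 14.5 dpc, against 131 and 183 in the rest of the embryo, a difference of 2.30 log2 (SE 0.14, adjusted p = 2.4e-05). After normalization over the whole series, Runx1 read between 254 and 452 in embryonic liver and 255 and 443 in adult liver. Cd27, also called higher, likewise read between 139 and 458, and 336 and 359. Myb read between 288 and 1050 in embryonic liver, but 8.84 and 19.2 in adult liver. A level that adult liver shares does not single out blood progenitors of the fetal organ. The stem cell factor receptor Kit, also used by germ cells and pigment cells, read 261 and 244 in liver at 12.5 dpc and 267 and 287 at 14.5 dpc, against 241 and 316 in the rest of the embryo. Its tissues overlapped, with a difference of -0.06 log2 (SE 0.13, adjusted p = 0.681). The 5 lower genes were Mecom (-2.77 log2, SE 0.33, adjusted p = 0.000388), Erg, Cd34, Meis1 and Gata2, each also expressed by endothelium or other embryonic tissues. Another probe set of Mecom gave 2.58 log2, and the mean of its probe sets was not called. With no scaling, 10 of the 17 were called lower.

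Cytokines, receptors and their signalling genes had a median of 0.03 log2, with 4 of 17 called higher and 3 lower. The erythropoietin receptor Epor, the survival receptor of red cell precursors, read 1239 and 1324 in liver at 12.5 dpc and 1466 and 1306 at 14.5 dpc, against 86.2 and 62.5 in the rest of the embryo, a difference of 4.18 log2 (SE 0.15, adjusted p = 4.27e-06). Il7, a growth factor for lymphoid precursors, read 271 and 293 in liver at 12.5 dpc and 292 and 298 at 14.5 dpc, against the floor on both in the rest of the embryo, at least 11.4-fold higher in liver. The homing receptor Cxcr4 and its ligand Cxcl12 were called lower, at -2.02 and -1.05 log2, and the stem cell factor Kitl was not called, at 0.05 log2.

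Other blood lineages were higher in liver too. Of 15 megakaryocyte and platelet genes, 10 were called higher and 0 lower, with a median of 1.39 log2. Platelet factor 4 (Pf4) read 3592 and 3745 in liver at 12.5 dpc and 2716 and 2855 at 14.5 dpc, against 404 and 417 in the rest of the embryo, a difference of 2.96 log2 (SE 0.11, adjusted p = 4.42e-06), and the related chemokine Ppbp differed by 4.76 log2 (SE 0.38, adjusted p = 6.88e-05). The receptor subunit Gp9 was at least 9.62-fold higher. Vwf, shared with endothelium, was not called at -0.05 log2. Of 22 macrophage genes, 17 were called higher, 0 lower, with a median of 1.64 log2, and 10 were called with no scaling. Csf1r, the growth factor receptor of macrophages, read 2006 and 2104 in liver at 12.5 dpc and 2909 and 2319 at 14.5 dpc, against 229.7 and 429.6 in the rest of the embryo, a difference of 2.88 log2 (SE 0.15, adjusted p = 1.53e-05), while other probe sets of Csf1r gave 0.80 and 1.27 log2. Cd5l, a secreted protein of tissue macrophages, read 634 and 361 in liver at 12.5 dpc and 1615 and 1261 at 14.5 dpc, against 99.95 and 72.6 in the rest of the embryo, a difference of 3.28 log2 (SE 0.47, adjusted p = 0.000839), and was higher at 14.5 than at 12.5 dpc on both liver arrays. Among 13 granule genes of neutrophils and mast cells, 11 were called higher, 0 lower, with a median of 2.79 log2. Myeloperoxidase (Mpo), an early granule enzyme, read 1217 and 1329 in liver at 12.5 dpc and 2474 and 2547 at 14.5 dpc, against 111 and 129 in the rest of the embryo, a difference of 3.90 log2 (SE 0.17, adjusted p = 8.41e-06). The calcium-binding proteins of neutrophils differed too, S100a8 by 3.88 log2 (SE 0.25, adjusted p = 3.1e-05) and S100a9 by 4.38 log2 (SE 0.17, adjusted p = 5.67e-06). In liver, these 3 genes were higher at 14.5 than at 12.5 dpc on both arrays.

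Lymphoid lists were small and mixed. Of 8 tested B lymphoid genes, 4 were called higher and 1 lower, and of 7 T lymphoid genes 4 and 2, with medians of 1.23 and 1.10 log2. With no scaling 1 T lymphoid gene was called higher, and with arrays scaled to a common median 2. The defining B cell gene Cd79a did not pass the filter on low values, at 40.1 and 61.1 in liver at 12.5 dpc and 74.1 and 70.1 at 14.5 dpc, against 46.2 and 55.8 in the rest of the embryo. Rag2, a recombinase of lymphocytes, read 713 and 719 in liver at 12.5 dpc and 978 and 814 at 14.5 dpc, against the floor on both in the rest of the embryo. Its range was 527 to 1330 on all 12 embryonic liver arrays of the series and 921 and 1120 on the 2 of adult liver, and at most 14.8 on the 4 of the rest. Cd2, a T cell surface protein, likewise read between 322 and 830 in embryonic liver, 562 and 906 in adult liver and under the floor in the rest. Ebf1 and Bcl11b, lineage factors that mesenchyme and neurons also use, were lower at -4.52 and -5.23 log2.

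The vessel and stromal cells of the liver were counted with markers shared by the whole embryo. Of 16 genes of endothelium in general, 0 were called higher and 11 lower, with a median of -1.38 log2, and 7 were lower without the rest-of-embryo array of 14.5 dpc. Emcn, a surface protein of veins and capillaries, read 67.6 and 71.8 in liver at 12.5 dpc and the floor and 25.3 at 14.5 dpc, against 312 and 348 in the rest of the embryo, a difference of -2.97 log2 (SE 0.36, adjusted p = 0.000386). Kdr, Egfl7 and Eng were not called, at 0.33, 0.28 and 0.17 log2. The sinusoid, the leaky capillary of liver, had 5 of 13 genes called higher and 2 lower, with a median of 0.80 log2. Of those 5, Clec1b (2.25 log2) also stands in the megakaryocyte list and Mrc1 (1.53 log2) in the macrophage list. The lectin Clec4g read 526 and 344 in liver at 12.5 dpc and 928 and 463 at 14.5 dpc, against 39.0 and 29.3 in the rest of the embryo, a difference of 3.96 log2 (SE 0.37, adjusted p = 0.000132). Oit3 differed by 3.53 log2 (SE 0.17, adjusted p = 1.05e-05), and Stab2, the scavenger receptor that clears hyaluronan, by 1.90 log2 (SE 0.20, adjusted p = 0.000214). A second probe set of Clec4g gave -1.16 log2. Wnt2 and Bmp2, signals of adult sinusoid, were lower at -2.27 and -1.89 log2. Of 14 stellate and mesothelial genes, 0 were higher and 8 lower, with a median of -1.29 log2, led by Gpm6a (-4.35 log2, SE 0.31, adjusted p = 4.34e-05).

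Genes of cell division were called higher at shares moderately above the background of 21%, and were seldom called lower, against a background of 25.6%. Of 25 mitosis genes, 7 were called higher and 0 lower, with a median of 0.74 log2, and of 23 replication genes 8 and 1, with a median of 0.84 log2. The mitotic kinase Plk1 read 1363 and 1413 in liver at 12.5 dpc and 1314 and 1271 at 14.5 dpc, against 581 and 359.7 in the rest of the embryo, a difference of 1.55 log2 (SE 0.14, adjusted p = 0.000102). The proliferation antigen Mki67 differed by 1.28 log2 (SE 0.09, adjusted p = 4.91e-05), and the flap endonuclease Fen1 by 2.34 log2 (SE 0.10, adjusted p = 8.04e-06). Tyms was the exception at -1.69 log2, while its other probe sets gave 2.06 and 0.69 and the mean of all 0.27. These counts hang on the scaling and on single arrays. With arrays scaled to a common median, 0 mitosis and 2 replication genes were called higher, and with no scaling 0 and 1, when 3 of each list were called lower. The mitosis count was 13 without the rest-of-embryo array of 12.5 dpc and 3 without that of 14.5 dpc, and the replication count 5 without the latter. Of 10 tested reference genes often taken as constant, 3 were called higher and 0 lower, with a median of 0.19 log2, and the other 7 lay between -0.45 and 0.61 log2. Actb differed by 1.67, B2m by 1.34 and Hprt by 1.02 log2, and all 3 were called, but a second probe set of Actb gave -2.33 log2 and their mean -0.33, and with no scaling Hprt stood at -0.20 log2.

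Most lists of other embryonic tissues were lower in liver, gut and pancreas and lung and kidney excepted. Of 20 neuron genes, 19 were called lower in liver and 0 higher, with a median of -4.11 log2. The stathmin Stmn3 read the floor on both in liver at 12.5 dpc and 36.1 and 43.0 at 14.5 dpc, against 2273 and 2399 in the rest of the embryo, a difference of -6.21 log2 (SE 0.20, adjusted p = 2.72e-06). Nefm, a neurofilament, and Map2, a microtubule protein of dendrites, followed, Nefm with -6.01 log2 (SE 0.25, adjusted p = 6.4e-06) and Map2 with -5.98 log2 (SE 0.17, adjusted p = 1.71e-06). Another probe set of Map2 gave -1.32 log2. Of 16 neural progenitor genes, 10 were lower and 3 higher, with a median of -2.80 log2. Zic1, a factor of the dorsal neural tube, was at least 66.0-fold lower in liver, and Fabp7, the lipid carrier of radial glia, differed by -5.74 log2 (SE 0.16, adjusted p = 1.52e-06).

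Skeleton and muscle followed. Of 20 cartilage and bone genes, 14 were lower and 2 higher, with a median of -2.92 log2. Col2a1, the collagen of cartilage, read 276 and 88.3 in liver at 12.5 dpc and 171 and 157 at 14.5 dpc, against 2269 and 4558 in the rest of the embryo, a difference of -4.33 log2 (SE 0.45, adjusted p = 0.000199). Of 20 skeletal muscle genes, 17 were lower and 1 higher, with a median of -2.97 log2. Embryonic myosin Myh3 read 50.2 and the floor in liver at 12.5 dpc and 49.1 and 51.0 at 14.5 dpc, against 1038 and 3841 in the rest of the embryo, a difference of -5.56 log2 (SE 0.39, adjusted p = 4.22e-05), and the muscle regulator Myog differed by -3.48 log2 (SE 0.25, adjusted p = 4.64e-05). The summed intensity of the list in the rest of the embryo was 15249 at 12.5 dpc and 53817 at 14.5 dpc. Of 22 genes of connective tissue matrix, 20 were lower and 0 higher, with a median of -2.01 log2. Col1a1, of bone and skin collagen, read 868 and 673 in liver at 12.5 dpc and 816 and 588 at 14.5 dpc, against 1313 and 5920.4 in the rest of the embryo, a difference of -1.94 log2 (SE 0.49, adjusted p = 0.0103), which stood at -0.79 log2 without the rest-of-embryo array of 14.5 dpc and was then not called.

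Heart genes were the least clear of the contractile genes. Of 17 tested, 5 were called lower and 0 higher, with a median of -2.18 log2. Cardiac troponin T (Tnnt2) read 554 and 1889 in liver at 12.5 dpc and 75.8 and 53.7 at 14.5 dpc, against 1428 and 3835 in the rest of the embryo, a difference of -3.20 log2 (SE 1.17, adjusted p = 0.0436). The call of Tnnt2 was lost under 9 alternatives, and the difference was -0.47 log2 without the rest-of-embryo array of 14.5 dpc. The list median was -0.36 log2 at 12.5 dpc and -3.74 log2 at 14.5 dpc. Without the second liver array of 12.5 dpc, 12 of the 17 were called lower. The count was 2 without the first liver array of 12.5 dpc or either of 14.5 dpc, 8 without the rest-of-embryo array of 12.5 dpc and 1 without that of 14.5 dpc.

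Skin, eye and inner organs gave smaller lists. Of 14 epidermal genes, 6 were lower and 4 higher, with a median of -0.90 log2. Krt14, a keratin of the basal layer, read 81.0 and the floor in liver at 12.5 dpc and the floor on both at 14.5 dpc, against 309.6 and 1548 in the rest of the embryo, a difference of -4.35 log2 (SE 0.76, adjusted p = 0.00212). Of 12 genes of lens, retina and pigment cells, 7 were lower and 2 higher, with the lens crystallin Cryab at -3.39 log2. Cryab was not called without the rest-of-embryo array of 14.5 dpc (-1.25 log2), with the mean of probe sets (-1.72 log2) or with no filter. Of 9 lung and kidney genes, 3 were lower and 0 higher, and of 10 gut and pancreas genes 1 was lower and 6 higher, with a median of 1.46 log2. Pancreatic carboxypeptidase Cpa1 read 696 and 940 in liver at 12.5 dpc and 733 and 1059 at 14.5 dpc, against 46.5 and 117 in the rest of the embryo, a difference of 3.52 log2 (SE 0.31, adjusted p = 9.47e-05). Of 26 Hox genes, which pattern the body axis, 14 were lower and 6 higher. Hoxc8 differed by -3.57 log2 (SE 0.30, adjusted p = 7.84e-05), while Hoxb13 was higher at 3.16 log2. Hoxb13 likewise read 203 to 549 in embryonic liver and 431 and 560 in adult liver. Without the rest-of-embryo array of 14.5 dpc, 1 Hox gene was called higher, and without that of 12.5 dpc 9 were called lower.

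A gene was read by 1 probe set, and other probe sets of the same gene gave a check within the arrays. Among the called-higher genes of the hepatic lists, 32 had another tested probe set: for 24 (75%) every other one showed at least 1 log2 in the same direction, and for 1 (3.12%) one showed at least 1 log2 in the opposite direction. For the blood lists these were 21 (72.4%) and 1 (3.45%) of 29 genes. Over all called-higher genes they were 36.8% and 28% of 906, and over all called-lower genes 39.5% and 23.1% of 1505. Genes of other embryonic tissues called lower in liver gave 63.6% and 20.5% of 44. Of the 24 genes of those lists that were called higher, 6 had another tested probe set, of which 0 repeated in full and 4 had one in the opposite direction. Nestin (Nes), for example, stood at 2.24 log2 by one probe set and at -3.48 by the other, Pax6 at 1.503 and -3.41, and Trp63 at 3.94 and -3.07. Adult liver gave another comparison. It cannot tell tissue from array form, since liver and rest-of-embryo arrays carry values of different form. Of the 99 hepatic genes called higher, 90 (90.9%) read on both adult liver arrays at least 2 times the highest rest-of-embryo array, and of the 44 called genes of the red cell, heme and erythroid factor lists 5 (11.4%) did. The share was 64% over all 2982 genes called higher, and 16 of the 24 genes of other embryonic tissues reached it. On the 4 liver arrays of 10.5 and 11.5 dpc, 33.3% of the hepatic genes reached this level, against 44.6% of all genes called higher. There it was reached by 18.2% of the red cell, heme and erythroid factor genes and 10 of the 24 genes of other embryonic tissues.

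**Figure D4:**
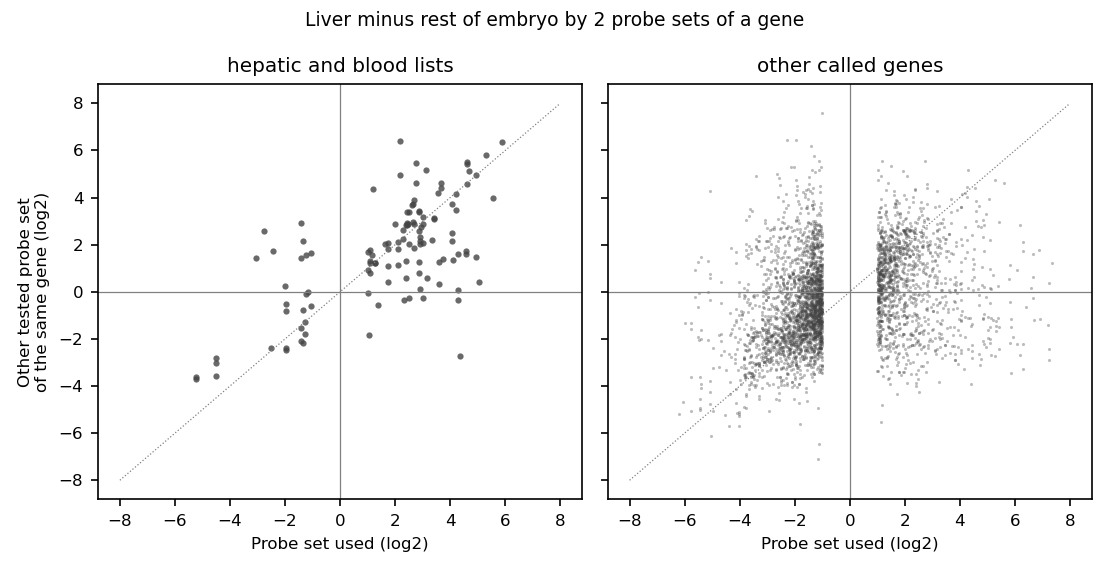
Liver minus rest of the embryo (log2) by the probe set used (horizontal) and by each other tested probe set of the same called gene (vertical). Genes of hepatic and blood lists (left) lie mostly near the dotted line of equality, while the other called genes (right) fill all 4 quadrants.

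The 8 largest differences in favour of liver came from genes outside the lists. Sprr2j-ps, a pseudogene of a skin cornification family, read 7897 and 7823 in liver at 12.5 dpc and 7444 and 7158 at 14.5 dpc, against the floor on both in the rest of the embryo, at least 299-fold higher in liver. The non-coding transcript Ppp2r2cos was at least 235-fold higher and the transporter Slc12a8 at least 177-fold. The bicarbonate transporter Slc4a8, the signalling regulator Rgs3, the transcription factor subunit Taf1, the potassium channel Kcnq5 and the mitochondrial ligase Cars2 followed, at 7.35, 7.24, 6.92, 6.86 and 6.66 log2. Of those with other probe sets, Slc4a8 gave 1.22 and Kcnq5 1.76 log2 there, Taf1 -1.15, Cars2 -0.28 and 0.63, and Rgs3 -2.89, -2.42 and 0.35. In the other direction, the reticulon Rtn1 of neurons was at least 99.3-fold lower in liver, Mtch1 at least 63.4-fold and the matrix protein Mfap4 at least 56.0-fold. These 3 probe sets read below 0 on all 4 liver arrays, as did 43 of the 3631 genes called lower. The neural genes Stmn3, Zic1, Nefm and Map2 and the nuclear RNA Malat1 (-5.75 log2, SE 0.31, adjusted p = 1.6e-05) completed the 8 largest.

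The 2 stages were compared directly. No gene was called for a change of the tissue difference between 12.5 and 14.5 dpc by the limma interaction term, 2308 of 14191 had an unadjusted p under 0.05, and the fit had 2 residual degrees of freedom, both from liver arrays. Between 1 and 190 genes a direction were called under 6 other settings. The list medians of the 2 stages lay side by side for definitive red cells (3.90 and 3.82 log2) and plasma proteins (4.33 and 3.88), and were further apart for clotting factors (3.41 and 4.49), P450 enzymes (0.35 and 2.83) and cartilage (-1.92 and -3.85).

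The same tissues at 10.5 and 11.5 dpc gave the closest comparison, and the change of the tissue difference between the 2 periods was tested over 12 arrays. Only an offset between the array forms that is the same in log2 at all stages would cancel in this term. Whether the offset is constant was not tested. Of 14704 genes, 448 (3.05%) were called higher and 218 (1.48%) lower. Definitive red cell genes had the largest median change of the lists, 3.05 log2, with 11 of 21 called higher and 0 lower. Slc4a1 stood 1.04 log2 above the rest of the embryo in the earlier stages and 4.24 in the later ones, a change of 3.20 log2 (SE 0.47, adjusted p = 0.00909). Of 13 heme genes, 8 were called higher and 0 lower, with a median change of 1.71 log2. Alas2 went from 0.19 to 2.81 log2, a change of 2.63 log2 (SE 0.40, adjusted p = 0.00974). Of 17 erythroid factors, 6 were called higher and 0 lower, Nfe2 by 3.29 log2 (SE 0.45, adjusted p = 0.00773). In these 3 lists no member was called lower in any setting tried, and the median change stayed between 0.56 and 4 log2.

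On the hepatic side, 5 of 16 clotting factors, 4 of 12 complement genes, 4 of 20 plasma proteins and 3 of 24 urea cycle and amino acid genes were called higher in the later period, and 1 plasma protein lower. That gene was Afp, whose difference was 5.05 log2 in the earlier stages and 2.70 in the later, a change of -2.35 log2 (SE 0.47, adjusted p = 0.0257). Its liver level varied little, between 5090 and 7380 over the 12 embryonic liver arrays, while the rest of the embryo ranged from 114 to 1460. Albumin was not called in this measure, going from 5.26 to 4.71 log2 (adjusted p = 0.689), nor was any of 20 hepatocyte transcription factors called, with a median change of 0.05 log2. Mitosis genes were called higher for 7 of 25 and lower for 0, with a median change of 0.85 log2, Mki67 by 1.61 log2 (SE 0.23, adjusted p = 0.00817). Neurons (0 higher and 4 lower of 20) and connective matrix (0 and 2 of 22) had median changes of -0.996 and -1.40 log2.

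**Figure D5:**
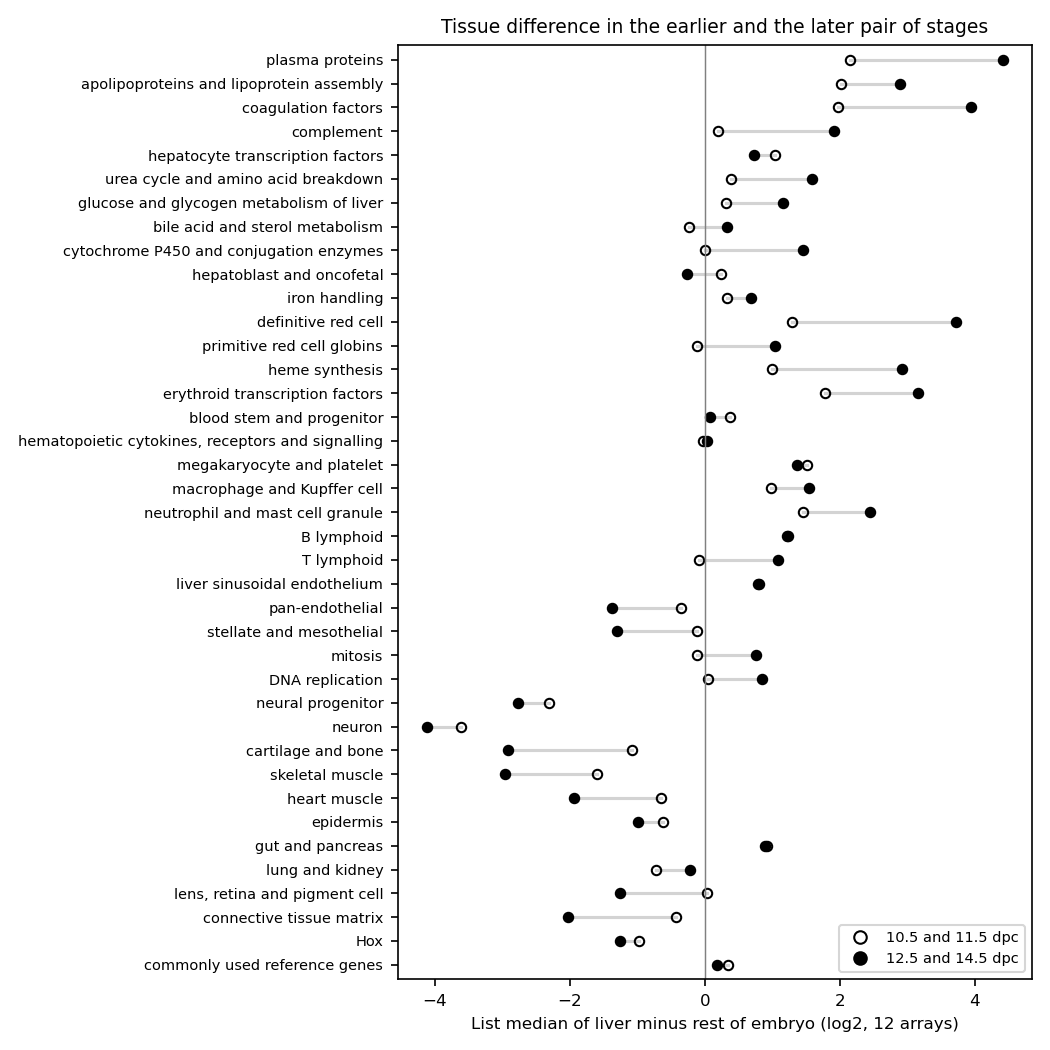
Median of liver minus rest of the embryo (log2, 12 arrays) for each gene list at 10.5 and 11.5 dpc (open circles) and at 12.5 and 14.5 dpc (filled circles). Definitive red cell genes went from 1.30 to 3.73 and plasma proteins from 2.15 to 4.42, while hepatocyte transcription factors went from 1.04 to 0.73.

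Over all called genes, the largest increases between the periods were those of Carmil2 (6.05 log2, SE 0.24, adjusted p = 6.31e-06), E2f2, a cell cycle factor of late erythroblasts (4.33 log2, SE 0.68, adjusted p = 0.0113), the protease inhibitor Pzp (4.25 log2, SE 0.71, adjusted p = 0.0129) and the urate transporter Slc2a9 (4.18 log2, SE 0.73, adjusted p = 0.0158). The largest decreases were those of the mast cell protease Cpa3 (-4.84 log2, SE 1.14, adjusted p = 0.0419), the epidermal keratin Krt15 (-3.91 log2, SE 0.69, adjusted p = 0.0157), Phf13 (-3.56 log2, SE 0.67, adjusted p = 0.0207) and Lgi1 (-3.36 log2, SE 0.41, adjusted p = 0.00487). This term is the change of the tissue difference, and the tissues contributed unequally to it. Cpa3 ranged from 28.1 to 143 over embryonic liver and from 21 to 1020 over the rest of the embryo, and Krt15 reached 69.2 in liver and 1430 in the rest. The call of Cpa3 was lost under 12 alternatives, among them the replicate block (adjusted p = 0.0576) and no filter (0.0861), and that of Phf13 under 7. Without the rest-of-embryo array of 14.5 dpc, E2f2, Pzp and Slc2a9 were not called either. Without that of 10.5 dpc, Pzp, Slc2a9 and Krt15 were not called, and by percentile ranks E2f2 and Slc2a9 were not. Another probe set of Carmil2 gave 0.16 log2 for the tissue difference at 12.5 and 14.5 dpc. After normalization over all 18 arrays, Carmil2 ran from -1530 to 2060 over the 12 embryonic liver arrays. The deposited value of Phf13 was below 0 on all 4 liver arrays of 12.5 and 14.5 dpc. These counts rest on single rest-of-embryo arrays. Without that of 14.5 dpc, 38 genes were called higher and 9 lower, and the definitive red cell, heme and erythroid factor counts were 1, 1 and 0. Without that of 10.5 dpc they were 101 and 16 genes and 6, 1 and 3 of the lists, and without that of 11.5 dpc 990 and 999 genes and 18, 11 and 14. The hepatic and mitosis counts moved alike: without the array of 14.5 dpc, 0 clotting, complement, plasma protein and mitosis genes were called higher, and without that of 11.5 dpc 13, 7, 8 and 13. Single liver arrays moved the counts too. Without either array of 14.5 dpc, 188 and 190 genes were higher and 29 lower, and 287 and 51, 245 and 37, and 259 and 93 without the second arrays of 10.5 and 11.5 dpc and the first of 12.5 dpc. Without either liver array of 14.5 dpc, 1 clotting, 1 complement, 0 plasma protein and 1 mitosis gene were called higher.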

How the data were processed

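Total RNA was labelled as biotinylated cRNA and hybridised to 1-colour Affymetrix mouse arrays, per the labels' protocols. The authors deposited 1 table of probe-set intensity values for 18 arrays and 45101 probe sets. The software that summarised them, its background correction and its scaling are not given in the sources used here, and liver and rest-of-embryo arrays carry values of different form. Groups were taken from the source names, since some age tags and titles disagree with them.

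The 6 arrays were quantile-normalized, values under the 20th percentile (25.3) were raised to it, and log2 was taken. Control probe sets and those with several symbols (932) or none (9160) were left out. A gene was read by its probe set of highest mean and tested if above the 50th percentile (83.9) on at least 2 arrays. limma 3.58.1 in R 4.3.3 fitted tissue with stage as a factor (3 residual degrees of freedom), tissue by stage (2), and the change from the 10.5 and 11.5 dpc arrays (12 arrays, 6), with p-values adjusted by Benjamini-Hochberg over all tested genes. Scripts were tested on simulated data. A fold written as "at least" is for a gene at the floor on every array of 1 group and is taken against the floor. For arrays, their number limits the precision.

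The members and gene lists (39 lists, 765 genes, 695 with a probe set of 1 symbol) were chosen with earlier results of these data known. Named by rule were the 8 largest differences in each direction, up to 3 called members of each list with the largest difference (or, with no call in the list, its member of smallest adjusted p), the 4 largest changes between periods in each direction, and a fixed panel, passing over predicted genes. Members called against their list may also be named, and other genes named were chosen after their values were seen. Alternatives were other normalizations, percentile ranks, floors, filters, the mean of all probe sets, a replicate block, more arrays in the fit and each array left out. A filter at the 75th percentile and leaving out genes below 0 on a liver array were chosen after seeing the data. Promoter sequences are from RefSeq (GRCm38.p6).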

Additional observations from a re-analysis of the deposited data

Results flagged for a closer look

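Of the named genes, 30 differed between the 2 periods by a test of the difference itself, the limma term for the tissue difference at 12.5 and 14.5 dpc minus that at 10.5 and 11.5 dpc. They include the 4 largest changes in each direction, which were named by this same term, so the count of 30 is no separate result. Over all 14704 genes tested, 3.05% were called higher and 1.48% lower. Values in brackets are that change in log2. Red cell and heme genes with a larger liver excess in the later period were Alas2 (2.63), Nfe2 (3.29), Slc25a37 (2.60), Slc4a1 (3.20), Uros (2.02) and the erythroid list member E2f2 (4.33). Hepatic genes that moved the same way were Ahsg (3.78), Bhmt (2.25), Gys2 (3.31), Hc (1.54), Kng1 (3.21), Otc (2.45), Slc27a2 (1.87) and Slc2a2 (1.78). The macrophage gene Cd5l (3.44) and the proliferation gene Mki67 (1.61) also had a larger liver excess. The fetal protein Afp (-2.35) went the other way, with an excess that stood at 5.05 log2 in the earlier period and 2.70 in the later.

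Outside the lists, Carmil2 (6.05), Kcnq5 (3.23), Ppp2r2cos (2.40), Pzp (4.25), Slc2a9 (4.18) and Taf1 (3.20) had a more positive difference in the later period. Genes with a more negative difference, which can come from a lower level in liver or a higher one in the rest of the embryo, were Cpa3 (-4.84), Krt15 (-3.91), Lgi1 (-3.36), Pdgfrb (-1.18), Peg3 (-1.02), Phf13 (-3.56) and Tubb3 (-1.24). The adjusted p of these 30 genes lay between 6.31e-06 and 0.0499. No group holds 4 arrays, so single arrays were not tested as outliers.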

How the results depend on the processing

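Single-array rest-of-embryo groups, values of 2 forms and 3 residual degrees of freedom limit every single-gene statement, and signal near the floor gives bounds only. The main counts were 2982 genes higher in liver and 3631 lower. With no normalization they were 1896 and 7795, with the 75th percentile filter 1964 and 2156, and 5679 were lower with arrays scaled to a common median. Without each array in turn they ran from 2670 to 3047 and from 3186 to 3697. The change between periods (448 higher, 218 lower) gave 291 higher by ranks, and 88 lower with no filter, 141 with the mean of probe sets and 92 with the replicate block. Leaving out each array gave 38 to 990 higher and 9 to 999 lower, the lowest without the rest-of-embryo array of 14.5 dpc and the highest without that of 11.5 dpc. Without that of 12.5 dpc, 704 were lower. The 14.5 minus 12.5 dpc term (0 and 0) gave 16 and 96 with no normalization, 24 and 101 by ranks, 67 and 177 with the floor at the 40th percentile, 1 and 11 at the 10th, 57 and 190 with no filter, and 7 and 29 with the 75th percentile filter. It stayed at 0 without each liver array, and could not be fitted without a rest-of-embryo array. In all these cases the cause was not tested. Reversed were Actb (-0.33), Peg3 (0.019) and Tyms (0.27) with the mean of probe sets and Hprt (-0.20) with no normalization. The replicate numbers of the liver arrays did not pair across stages (r between -0.188 and 0.161). With the replicate block, 2979 genes were higher and 3541 lower in the tissue fit, and 321 higher in the change between periods.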

Other observations

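Some genes called higher in liver read in overlapping ranges in embryonic and adult liver. These values were looked up after the differences were seen. The amino acid ligase Cars2 ranged from 1810 to 5150 over 12 embryonic livers and read 2750 and 3750 in adult liver. Slc4a8 read between 5680 and 7720, and 7720 and 8310. The lens membrane gene Lim2 read between 1320 and 3710 in embryonic liver, 2600 and 4280 in adult liver, and at most 69.9 in the rest of the embryo. For other genes adult liver lay outside the embryonic range. Taf1 ranged from 232 to 3790 in embryonic liver and read 34.7 and 49.9 in adult liver. Klf1 ranged from 416 to 3760 and read 31.2 and 62.2 in adult liver, and Slc4a1 from 432 to 6280, with 30.8 and 48.6. Hepcidin (Hamp) lay between 55.9 and 117 in embryonic liver and at 6210 and 6240 in adult liver.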
